A study of Homo sapiens with 12 samples.

Results

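The genes described here are the tubulin folding cofactors TBCA, TBCB, TBCC, TBCD and TBCE, together with TTC5 and SCAPER, which couple free tubulin to the decay of tubulin RNA. The 7 genes were chosen by name from what their proteins do, and 6 of them were matched to a row among the 63568 gene identifiers of the count table, whereas TBCE was not analysed here. All 6 passed the filter on low counts and are among the 25249 genes tested.

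The RNA came from MDA-MB-231/GFP cells, an established triple negative breast cancer line carrying a green fluorescent protein, labelled WT in genotype and grown as droplets of a cell-Matrigel mixture. The untreated conditions were C1 (day 2) and C2 (day 4). The treated conditions received 0.0005, 0.005, 0.05 or 0.5 μM Paclitaxel and were taken on day 4, and the sample labels place the drug on day 2. The study's account of its imaging experiment names a later day for the drug, so that the length of exposure rests on the labels alone. Each of the 6 conditions had 2 biological replicates, called R1 and R2 here, which gives 4 untreated and 8 treated samples of a single cell line. There was no treated sample of day 2, so C2 is the untreated condition that shares the day of the treated ones, and the vehicle of the drug is not given in the sources used here.

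Microtubules are polymers of a dimer of alpha and beta tubulin. New tubulin chains are passed from prefoldin to the CCT chaperonin, and then to the cofactors. TBCA holds folded beta tubulin and TBCB holds folded alpha tubulin. TBCD takes over the beta chain and TBCE the alpha chain, and TBCC joins their complex and triggers hydrolysis of GTP by beta tubulin, which releases the finished dimer. TBCD, TBCE and the small GTPase ARL2 can also take dimers apart again. TTC5 acts at the ribosome: when free dimer is plentiful, it binds the first residues of a tubulin chain as the chain emerges, and through the adaptor SCAPER it brings the CCR4-NOT deadenylase to the tubulin RNA, which is then degraded. Paclitaxel binds beta tubulin within the microtubule and stabilises the polymer.

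The part of tubulin that TTC5 reads is encoded by the first 4 codons, shown in capitals for the 9 alpha and beta tubulin genes with a mean of at least 10 CPM (counts scaled to library size). The 30 first coding bases of each gene are given 5′ to 3′ from the GRCh37 genome with GENCODE transcripts.
TUBA1A, TUBA1B and TUBA1C: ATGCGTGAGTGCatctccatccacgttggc
TUBA4A: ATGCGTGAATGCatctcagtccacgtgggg
TUBB: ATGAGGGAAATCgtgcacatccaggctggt
TUBB4B: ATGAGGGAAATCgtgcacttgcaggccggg
TUBB6: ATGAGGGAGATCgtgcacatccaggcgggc
TUBB2A: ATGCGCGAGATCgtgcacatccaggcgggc
TUBB2B: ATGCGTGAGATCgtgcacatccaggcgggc
The 3 TUBA1 genes shared all 30 bases, and TUBB2A and TUBB2B differed by 1 base within theirs. The fourth codon was TGC in the 4 alpha genes and ATC in the 5 beta genes shown, which sets the alpha and beta recognition stretches apart. The bases of TUBB lie at chr6:30688284-30688313 on the plus strand and those of TUBB2A at chr6:3157668-3157697 on the minus strand, each within a coding exon, and those of the alpha genes are split over 2 exons, as at chr12:49580590-49582762 on the minus strand for TUBA1A.

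Total counts ran from 38380629 to 79169121 per sample (median 65977095.5), and the smallest count of any member in a sample was 680, for TBCC, so counting error was small beside the spread between replicates. Differences were tested with edgeR's quasi-likelihood test on the counts, with Benjamini-Hochberg adjustment over all 25249 genes and a call at an adjusted p under 0.05. The common biological coefficient of variation was 15.6%. The 2 libraries of C1 stood apart from each other. On a scale of GC balance (the median log2 deviation of the 2034 genes richest in G and C, minus that of the 2035 poorest), C1 R1 was at 0.40 and C1 R2 at −0.49, while the other 10 samples lay between −0.20 and 0.28. C1 R2 was also the shallowest library and had the highest mitochondrial share, 7.74% of counts against 3.73% to 6.18% in the others. The comparisons of treated with untreated samples are therefore given with and without the C1 libraries. The cells matched their label: VIM, CD44, AXL and MSN, markers of this mesenchymal line, lay between 229 and 1363 CPM in every sample, and ESR1, PGR and CDH1, which the line expresses little, stayed under 1 CPM. Of the other low markers listed, EPCAM lay between 4.32 and 6.80 CPM and ERBB2 reached 52.3 CPM. AXL was the 1 of the 4 markers of the line called lower in treated samples (−0.88, adjusted p = 0.00113, edgeR), from 405 to 842 CPM in untreated to 232 to 352 CPM in treated samples without overlap, and it was also called with the day 4 samples only (−0.67, adjusted p = 0.00502). The 7 fibroblast markers summed to 9.25 to 17.0 CPM in untreated and 12.9 to 22.0 CPM in treated samples, and the 3 immune markers to 0.449 to 0.643 and 1.05 to 1.65 CPM. The 2 endothelial markers matched summed to 1.17 CPM at most, and 3 fibroblast, 2 immune and both endothelial markers stayed under 1 CPM in every sample. Of the lists of other cell types, 2 fibroblast genes, PDGFRA (2.73, adjusted p = 0.000579, edgeR) and COL3A1 (2.03, adjusted p = 0.00407), and 2 immune genes, CD14 (1.17, adjusted p = 0.000439) and PTPRC (1.43, adjusted p = 0.0409), were called higher in treated samples, at levels of at most 2.18 CPM. With the day 4 samples only, PDGFRA (3.22, adjusted p = 0.00612) and CD14 (1.17, adjusted p = 0.00793) were called and COL3A1 (1.97, adjusted p = 0.0562) and PTPRC (0.90, adjusted p = 0.277) were not. The part of AXL and of these genes in the values below was not tested.

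The cofactors, TTC5 and SCAPER were all expressed in every sample. Per kilobase of merged exons, the untreated day 4 level was 32.6 CPM for TBCA, 29.98 for TBCB, 14.0 for TBCC, 3.66 for TTC5, 2.68 for TBCD and 2.15 for SCAPER. This order depends on the length used, because TBCD has 23081 bp of merged exons but a canonical transcript of 7159 bp. Per kilobase of canonical transcript, TBCD (8.62 CPM) lay above TTC5 (7.48 CPM), and TBCA (153 CPM) lay further above TBCB (102 CPM). Per kilobase of the longest annotated transcript, as a mean over the 12 samples, the order of this pair turned, with TBCB at 100.4 CPM and TBCA at 44.1 CPM, and TTC5 (6.57 CPM) lay just above TBCD (6.42 CPM). TBCA and TBCB, which hold the beta and the alpha chain, were the 2 most abundant members by all 3 lengths and SCAPER the least, while the order of TBCA and TBCB depended on the length. In bulk RNA, fewer cells of a kind and less RNA per cell cannot be told apart.

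**Figure D1:**
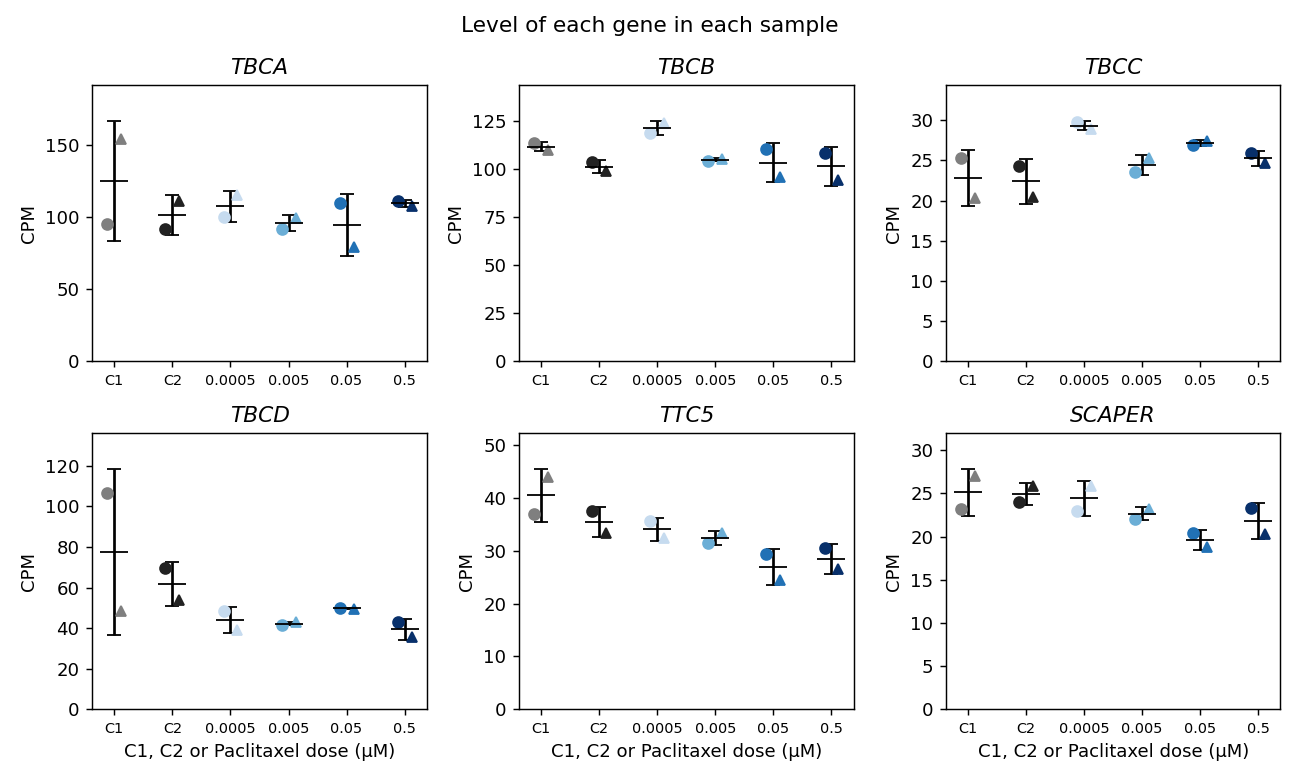
Level of each gene in CPM (vertical axis, from 0) in each of the 6 conditions (horizontal axis), with circles for R1, triangles for R2, and the mean ± SD of the 2 replicates. TBCD and TTC5 lie lower in the treated than in most untreated samples, and the 2 C1 samples of TBCD, at 106 and 48.6 CPM, differ by the largest ratio of any pair.

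TBCD and TTC5 fell with treatment in the comparison of all 8 treated with all 4 untreated samples, and no other member passed the test there. TBCD fell by 0.68 on the log2 scale (SE 0.16, adjusted p = 0.00527, edgeR) and TTC5 fell by 0.32 (SE 0.11, adjusted p = 0.0341). Over all genes tested, 24.4% were called in this comparison (11.3% lower and 13.1% higher), so 2 of 6 is a share near that of genes in general. The median change of the 6 members was −0.17, against −0.002 over all tested genes and −0.15 over the 11189 genes with a mean of at least 8 CPM, and 73.9% of these more abundant genes had a negative change. The 4 untreated samples pool days 2 and 4 whereas every treated sample is of day 4, so that day is not balanced here.

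TBCD is the beta tubulin cofactor that, with ARL2 and TBCE, builds the tubulin dimer and can also take it apart. The gene lies at chr17:80709918-80903790 on the plus strand (GRCh37) and has 60 merged exons. It was at 106 and 48.6 CPM in C1, and at 69.5 and 53.9 CPM in C2. Treated samples were at 48.6 and 39.3 CPM (0.0005 μM), 41.8 and 42.9 CPM (0.005 μM), 49.8 and 49.7 CPM (0.05 μM), and 43.1 and 35.7 CPM (0.5 μM). Every treated sample lay below both C2 samples and below C1 R1, but C1 R2 lay within the treated range, so that 6 of the 8 treated samples were below all 4 untreated ones. Over all tested genes, 5.63% had all treated below all untreated samples, which no member did. The share of genes with only part of the treated samples below was not computed, for TBCD or for TTC5 and SCAPER.

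By condition, TBCD was highest in C1 (77.5 ± 40.9 CPM, SD, n = 2), then in C2 (61.7 ± 11.0), 0.05 μM (49.7 ± 0.0628), 0.0005 μM (43.9 ± 6.54), 0.005 μM (42.3 ± 0.755) and 0.5 μM (39.4 ± 5.25). Neighbours in this order overlapped in their samples, except C2 with 0.05 μM and 0.05 μM with 0.0005 μM. A two-sided exact permutation test over the 495 ways of splitting the samples 8 to 4 gave an unadjusted p of 0.0121 for TBCD, and over the 45 ways of splitting the day 4 samples 8 to 2 it gave 0.0444, the smallest it can give. The size of its fall depended on C1 R1, the sample with the highest value. Without C1 R1 the change was −0.40 (adjusted p = 0.0277, edgeR), and with the day 4 samples only it was −0.50 (adjusted p = 0.0131), in a fit added after the data had been seen, where 13.5% of all genes were called. Within the day 4 samples the call was lost without C2 R1 (−0.31, adjusted p = 0.366, where 0.919% of all genes were called) and kept without each of the other 9. Apart from these day 4 fits with a sample left out, 21 alternatives were tried. TBCD was called lower under all 21, from −0.80 to −0.40, with adjusted p-values from 0.000943 to 0.0277.

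TTC5, the tetratricopeptide protein that recognises emerging tubulin chains, lies at chr14:20724717-20774119 on the minus strand and has 14 merged exons. Its levels were 36.9 and 43.9 CPM in C1, and 37.4 and 33.4 CPM in C2. With Paclitaxel they were 35.5 and 32.4 CPM (0.0005 μM), 31.5 and 33.3 CPM (0.005 μM), 29.3 and 24.5 CPM (0.05 μM), and 30.4 and 26.5 CPM (0.5 μM). All treated samples other than 0.0005 μM R1 were below all 4 untreated samples, 7 of 8. The exact permutation test gave an unadjusted p of 0.00808, the smallest of the 6 members tested in this way, and 0.0889 over the day 4 samples only.

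The TTC5 means fell in the order C1 (40.4 ± 4.97 CPM, SD, n = 2), C2 (35.4 ± 2.86), 0.0005 μM (34.0 ± 2.17), 0.005 μM (32.4 ± 1.26), 0.5 μM (28.4 ± 2.80) and 0.05 μM (26.9 ± 3.36). Of the 5 pairs of neighbours in this order, only 0.005 and 0.5 μM had samples that did not overlap. The call for TTC5 was less stable than that for TBCD: it held in 12 of 21 alternatives, from −0.39 to −0.21, with adjusted p-values from 0.0198 to 0.236. It was lost with the day 4 samples only (−0.22, adjusted p = 0.236), without C1 R2 (−0.23, adjusted p = 0.106), without C1 R1 (−0.34, adjusted p = 0.0538), and when libraries were scaled on the more abundant genes (−0.21, adjusted p = 0.129). It was also lost without C2 R1 (−0.33, adjusted p = 0.0685), without 0.05 μM R1 (−0.32, adjusted p = 0.0544) and without 0.5 μM R2 (−0.31, adjusted p = 0.0570). Other filters on low counts lost it as well, at −0.32 with 1 count in total (adjusted p = 0.0657) and −0.24 with a mean of 1 CPM (adjusted p = 0.0999). The mean of TTC5 was highest in the day 2 samples, and the difference was smaller without both of them.

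TBCC, the GTPase-activating cofactor, was the member with the largest positive change, and it was not called. The gene is a single exon at chr6:42712236-42713841 on the minus strand. It was at 25.3 and 20.4 CPM in C1, and at 24.4 and 20.4 CPM in C2. The treated samples were at 29.7 and 28.9 CPM (0.0005 μM), 23.6 and 25.3 CPM (0.005 μM), 26.9 and 27.4 CPM (0.05 μM), and 26.0 and 24.6 CPM (0.5 μM). In 6 of 8 treated samples TBCC lay above all untreated samples. All treated lay above all untreated samples for 7.5% of all genes, and the share of genes with 6 of 8 above was not computed. The change was 0.22 (SE 0.10, adjusted p = 0.0969, edgeR). The exact permutation test gave an unadjusted p of 0.0283, and 0.0889 over the day 4 samples only. TBCC was called in 2 of 21 alternatives, at 0.34 when libraries were scaled on the more abundant genes (adjusted p = 0.00597) and at 0.31 with a filter of mean 1 CPM (adjusted p = 0.0116). TTC5 was not called in either of them.

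SCAPER, the adaptor between TTC5 and CCR4-NOT, lies at chr15:76640245-77197785 on the minus strand. Its levels were 23.2 and 27.0 CPM in C1, and 24.0 and 25.8 CPM in C2. In drug-treated cells they were 23.0 and 25.8 CPM (0.0005 μM), 22.1 and 23.2 CPM (0.005 μM), 20.4 and 18.8 CPM (0.05 μM), and 23.3 and 20.3 CPM (0.5 μM). The treated samples overlapped the untreated ones, with 6 of 8 below all of them, and 0.05 μM was the lowest condition. The change was −0.18 (SE 0.10, adjusted p = 0.176, edgeR), close to the median of −0.15 over the more abundant genes. The exact permutation test gave an unadjusted p of 0.0364, and 0.0889 over the day 4 samples only.

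TBCA and TBCB showed the smallest relations to treatment. TBCA, which holds beta tubulin, lies at chr5:76986991-77164604 on the minus strand. It ranged from 91.5 to 154 CPM in untreated samples (median 103) and from 79.1 to 115 CPM in treated samples (median 104), and its change was −0.15 with a 95% interval from −0.44 to 0.13. TBCB, which holds alpha tubulin, lies at chr19:36605191-36616849 on the plus strand. It ranged from 98.6 to 113 CPM in untreated samples and from 94.2 to 124 CPM in treated samples (medians 107 and 107), and its change was 0.01 with a 95% interval from −0.18 to 0.21. The groups overlapped for both genes (exact permutation test, unadjusted p = 0.444 for TBCA and 0.865 for TBCB). A rise or fall of either gene within these intervals could not have been told from none. With the day 4 samples only, TBCA (0.0047), TBCB (0.088), TBCC (0.24) and SCAPER (−0.17) were not called either, with adjusted p-values from 0.137 to 0.987 (edgeR). With each of these samples left out in turn, the change of TBCC ranged from 0.088 to 0.37.

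**Figure D2:**
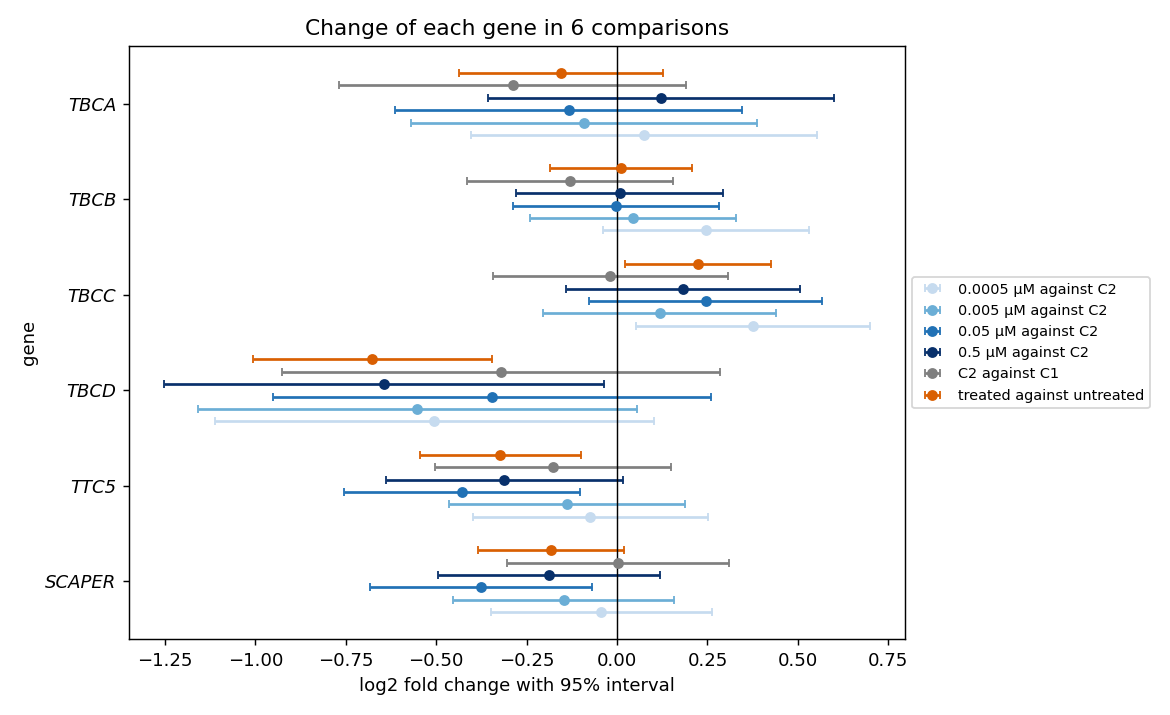
Log2 fold change of each gene (horizontal axis) with its 95% interval in 6 comparisons, from the edgeR fits, with genes on the vertical axis and the line at 0 marking no change. The intervals for treated against untreated samples exclude 0 for TBCD (−1.01 to −0.35), TTC5 (−0.55 to −0.10) and TBCC (0.02 to 0.43), and only the first 2 passed after adjustment over all genes.

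Each dose was then compared with C2, the untreated samples of the same day, to ask at which dose the members differ. In the fit of all 12 samples no member passed the test at any dose. The share of all genes called was 2.34%, 3.28%, 8.32% and 6.32% in ascending order of the doses. The changes nearest to a call were TTC5 and SCAPER at 0.05 μM (−0.43 with SE 0.15 and adjusted p = 0.103, and −0.38 with SE 0.14 and adjusted p = 0.125), TBCD at 0.5 μM (−0.64, SE 0.28, adjusted p = 0.193) and TBCC at 0.0005 μM (0.38, SE 0.15, adjusted p = 0.222). The 4 doses share the C2 samples, so their changes are not independent of each other.

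These dose comparisons changed once the C1 samples, which are part of neither side, no longer contributed to the estimate of the spread. In the fit of the 10 day 4 samples, TBCD was called lower at 0.0005 μM (−0.50, SE 0.13, adjusted p = 0.0226, edgeR), at 0.005 μM (−0.53, SE 0.13, adjusted p = 0.0142) and at 0.5 μM (−0.64, SE 0.13, adjusted p = 0.00305), and not at 0.05 μM (−0.32, adjusted p = 0.0914). TTC5 and SCAPER were called lower at 0.05 μM (−0.41, adjusted p = 0.0198, and −0.36, adjusted p = 0.0353), and TBCC was called higher at 0.0005 μM (0.38, adjusted p = 0.0348). The changes themselves stayed near those of the 12-sample fit, and the standard error of TBCD went from 0.28 to 0.13. All genes together were also called more often in this fit, 10.2%, 12.6%, 19% and 19.9% of them in the order of the doses. Leaving out either C1 sample alone also takes C1 out of the estimate of the spread, since a condition left with a single sample adds nothing to it. The same calls were therefore no separate check of the day 4 fit. The exception was TBCC at 0.0005 μM, which was called without C1 R2 and not without C1 R1. All genes were then called at shares of 9.23% to 18.8%. This fit was chosen after the data had been seen, and the 12-sample fit stays the main result.

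The calls of the day 4 fit depended on single libraries, where a condition left with 1 sample is assumed to vary like the others. Without C2 R1, the sample of the pair with more TBCD, no dose had a call of TBCD, with −0.30 at 0.0005 μM, −0.35 at 0.005 μM and −0.44 at 0.5 μM (adjusted p = 0.240, 0.206 and 0.0737, edgeR, where 4.55%, 2.82% and 5.74% of all genes were called). Without C2 R2 the values were −0.71, −0.75 and −0.85, and TBCD was also called at 0.05 μM (−0.53, adjusted p = 0.0148), where it was −0.14 without C2 R1. In the 12-sample fit the same omissions moved TBCD from −0.69 to −0.30, from −0.74 to −0.35, from −0.53 to −0.14 and from −0.83 to −0.44 in ascending order of the doses. With each of the 10 samples left out in turn, the calls held in 8, 7 and 8 of 10 cases for TBCD at 0.0005, 0.005 and 0.5 μM, in 8 for TTC5 and 4 for SCAPER at 0.05 μM, and in 2 for TBCC at 0.0005 μM. TBCD at a dose also lost its call without 0.0005 μM R2 (−0.36), 0.005 μM R1 (−0.55) or R2 (−0.56), and 0.5 μM R2 (−0.55), and TTC5 at 0.05 μM lost it without C2 R1 (−0.34) or 0.05 μM R2 (−0.30). TBCC at 0.0005 μM was 0.52 without C2 R1 and 0.22 without C2 R2. TTC5 at 0.5 μM, not called with all 10 samples, ranged from −0.42 to −0.22 and gained a call in some cases. Marker genes were called in this fit too: AXL was lower at all 4 doses (−0.46 to −0.81), and MSN (−0.53, adjusted p = 0.0195) and the fibroblast gene PDGFRB (−0.65, adjusted p = 0.0419) were lower at 0.5 μM. The endothelial gene VWF was higher at 0.05 μM (1.44, adjusted p = 0.0367), PDGFRA at all 4 doses, COL3A1 and CD14 at the 3 higher doses and COL1A1 at 0.005 μM (0.64, adjusted p = 0.0282). Their part in the members' values was not tested.

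Sample by sample against C2, both replicates of TBCD lay below both C2 samples at all 4 doses, and those of TTC5 and SCAPER at the 3 higher doses. TBCC lay above both C2 samples at 0.0005, 0.05 and 0.5 μM, and TBCB at 0.0005 and 0.005 μM. With 2 samples against 2 such separation is common: it was seen in the lower direction for 24.8%, 28.8%, 24.7% and 26.9% of all genes at the 4 doses, and in the higher direction for 28.3%, 33.3%, 28.1% and 30.9%. An exact permutation test of 2 against 2 samples cannot give a p below 0.333.

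Whether the members changed with the dose was asked among the 8 treated samples alone, as a slope per 10-fold dose, and no member was called, where 3.06% of all genes were. TTC5 had the steepest decline among the members, −0.10 per 10-fold dose (SE 0.04, unadjusted p = 0.0299, adjusted p = 0.214, edgeR), while the slope of TBCD was −0.02 (SE 0.05). By its mean, TBCD already lay below C2 at the lowest dose and was lowest at 0.5 μM, and TTC5 was lowest at the 2 highest doses. Whether the 2 genes differ in shape was not tested. Between the untreated days no member was called, and 0.325% of all genes were. From C1 to C2 the change was −0.32 for TBCD, with a 95% interval from −0.93 to 0.29, and −0.18 for TTC5, with an interval from −0.50 to 0.15. The value of TBCD depended on both C1 libraries, as it was −0.75 without C1 R2 and 0.36 without C1 R1. In each case day 2 rested on a single library. TBCA, not called with all samples (−0.29, adjusted p = 0.666, edgeR), was at −0.59 without C1 R1, where day 2 rested on C1 R2 alone.

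The GC balance of the libraries moved with part of these values. TBCD (55.3% G and C in its longest transcript) was highest in C1 R1, the sample with the highest balance, while TBCA (33.4%) was highest in C1 R2, the sample with the lowest. TTC5, at 41.6%, was also highest in C1 R2, at 43.9 CPM. Not all members followed this: TBCB (58.4%) was highest in 0.0005 μM R2 (124 CPM) and TBCC (54.4%) in 0.0005 μM R1 (29.7 CPM). After a correction for GC content, added after the data had been seen, treated against untreated samples gave −0.72 for TBCD (adjusted p = 0.00129, edgeR) and −0.33 for TTC5 (adjusted p = 0.0203), both as large as before.

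**Figure D3:**
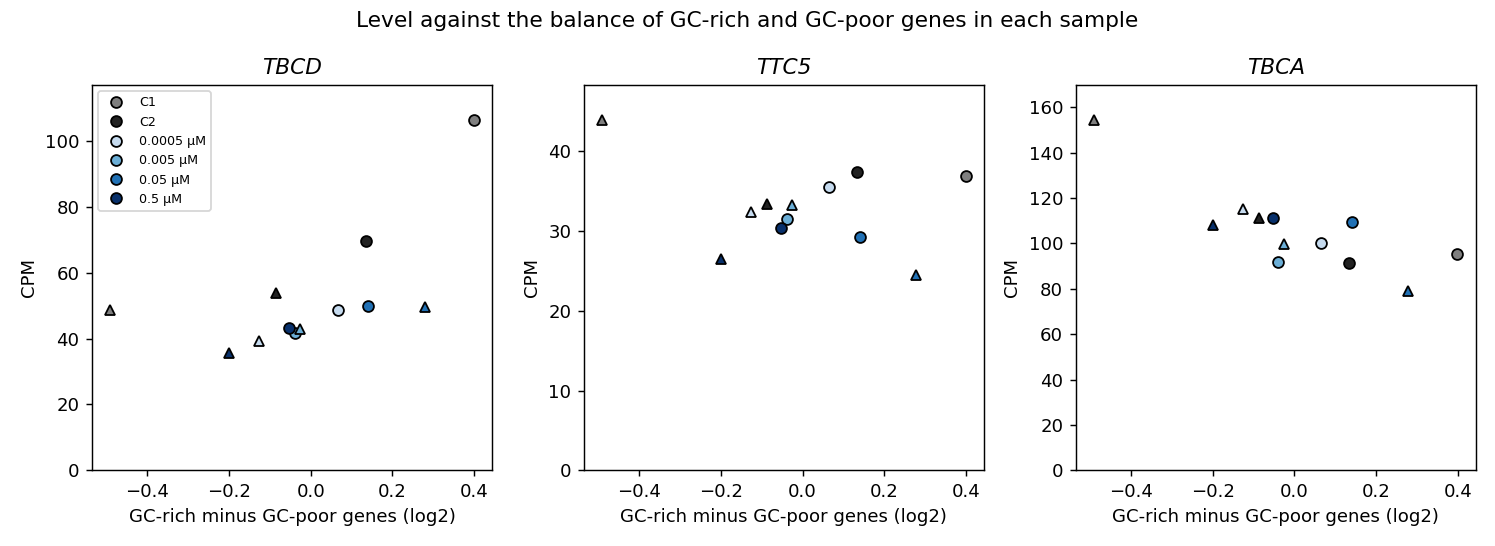
Level of TBCD, TTC5 and TBCA in CPM (vertical axis) against the GC balance of each library (horizontal axis, log2), with circles for R1, triangles for R2 and a shade for each condition. C1 R1 lies at the far right at 0.40 and C1 R2 at the far left at −0.49, and the treated samples of TBCD stay below both C2 samples across the range between.

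Reads of neighbouring genes could reach some of these counts, since the strand setting of the counting is not given in the sources used here. TBCD shares 1901 bp of exon, 8.24% of its merged exons, with B3GNTL1 on the opposite strand, which had 588 to 1541 counts in a sample. TTC5 shares 740 bp with a long noncoding RNA gene, ENSG00000258768, on the same strand, which had 23 to 98 counts against 1467 to 2689 for TTC5. TBCB shares 217 bp with POLR2I on the opposite strand. The part of these neighbours in the values was not tested.

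The targets of the TTC5 route are the tubulin RNAs, and of 17 alpha and beta tubulin genes listed, 15 were tested. In treated against untreated samples 7 of the 15 rose and none fell (median change 0.54), where 13.1% of all genes were called higher. The genes that rose were TUBA1A (1.08, adjusted p = 1.07e-05, edgeR), TUBB2A (1.01), TUBB3 (0.99), TUBB2B (0.96), TUBA4A (0.68), TUBB4A (0.62) and TUBB6 (0.40, adjusted p = 0.00797). TUBA1A went from 292 to 331 CPM in untreated samples to 564 to 800 CPM in treated samples, with no overlap. TUBA1B (0.27, adjusted p = 0.127, edgeR) and TUBA1C (0.17, adjusted p = 0.347), which share its first 30 coding bases, were not called and are named after their values were seen. The part of the TTC5 route in these changes was not tested. TUBB, the most abundant of the list, was not called either (0.13, adjusted p = 0.515). With the day 4 samples only, 9 of the 15 rose and none fell, where 7.11% of all genes were called higher. TUBA1A (1.06, adjusted p = 0.000291, edgeR) was called there, as were TUBA1B (0.51, adjusted p = 0.0174), TUBA1C (0.41, adjusted p = 0.0375) and TUBB4B (0.43, adjusted p = 0.0338), whereas TUBB4A (0.66, adjusted p = 0.0597) was not. Whether TUBA1B and TUBA1C are called thus depends on the C1 samples. At the single doses 4, 3, 6 and 7 of the 15 were called higher against C2, and none lower, where 1.87%, 2.5%, 5.09% and 4.36% of all genes were called higher. In the fit of the day 4 samples these counts were 10, 6, 10 and 7, where 5.68%, 6.47%, 9.97% and 9.21% of all genes were called higher, and TUBA3D was called lower at 0.0005 μM (−1.34, adjusted p = 0.0380). TUBB2A and TUBB2B are nearly identical, and their levels stood in a ratio of 0.478 to 0.502 in every sample, so that reads of the pair may not be separable. The TUBA1 genes are also close copies, and how reads were split among them is uncertain in the same way.

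Set against the members, the mean ratio of summed tubulin RNA to each of the 6 was higher in treated than in untreated samples. The summed level of the 17 tubulin genes was 2688 to 3890 CPM in untreated and 3547 to 4643 CPM in treated samples, which overlap. Tubulin CPM per TTC5 CPM was 68.4, 73.3, 80.5 and 105 in the untreated samples and 112 to 153 in the treated ones, without overlap. Per TBCD CPM it was 36.6 to 61.8 in untreated and 75.4 to 118 in treated samples, also without overlap. Per TBCC CPM it was 113 to 154 in untreated and 137 to 160 in treated samples, which overlap, as the groups did for SCAPER, TBCA and TBCB. The mean ratio in treated samples over that in untreated samples was 1.94 for TBCD, 1.60 for TTC5, 1.44 for SCAPER, 1.37 for TBCA, 1.27 for TBCB and 1.09 for TBCC, beside 1.28 for the tubulin sum itself. Against the C2 samples alone these values were 2.04, 1.70, 1.64, 1.44, 1.37 and 1.22, beside 1.45 for the sum, and neither the sum nor any of the 6 ratios overlapped. They are descriptions of RNA levels with no test, and how often a ratio to other genes would separate was not computed. Against C2 the sum separated by itself, so a ratio that separates there is not a trait of the member.

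**Figure D4:**
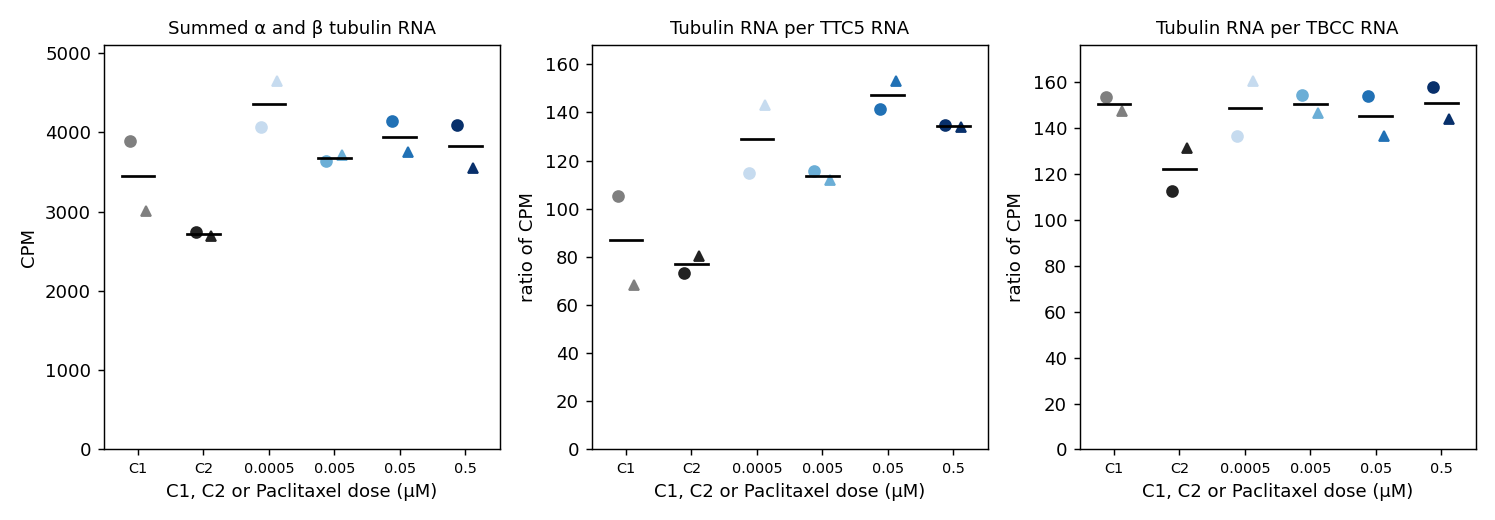
Summed CPM of the alpha and beta tubulin genes, and the same sum divided by the CPM of TTC5 and of TBCC (vertical axes), in each condition (horizontal axes), with circles for R1, triangles for R2 and a line at the mean. Relative to TTC5, all 8 treated samples lie at or above 112 and all untreated samples at or below 105, while relative to TBCC the treated and the 4 untreated samples overlap.

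The other components of the 2 routes were followed by lists. Among 10 subunits of CCR4-NOT, the complex that SCAPER recruits, 4 fell in treated against untreated samples and none rose, where 11.3% of all genes were called lower, and all 10 changes were negative, with a median of −0.21, where 73.9% of the more abundant genes had a negative change. CNOT11, the subunit through which SCAPER reaches the complex, fell by 0.38 (SE 0.09, adjusted p = 0.00536, edgeR), from 44.4, 34.3, 38.4 and 33.8 CPM in the untreated samples to 25.8 to 31.3 CPM in the treated samples, with no overlap, as was the case in this direction for 5.63% of all genes. CNOT6, a catalytic deadenylase subunit, fell by 0.32 (adjusted p = 0.0249), CNOT1, the scaffold, fell by 0.31 (adjusted p = 0.0364), and CNOT9 fell by 0.27 (adjusted p = 0.0310). The median over the more abundant genes was −0.15 in the same comparison. With the day 4 samples only, CNOT11 alone of the 10 was called (−0.31, adjusted p = 0.0302, edgeR), where 6.35% of all genes were called lower, the median was −0.14, and 6 of the 10 changes were negative, against 63.5% of the more abundant genes.

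On the folding side, 1 of 8 CCT subunits fell, TCP1 (−0.32, adjusted p = 0.0411, edgeR), and none rose, where 11.3% of all genes were called lower, with a median of −0.17, which turned to 0.044 with the day 4 samples only. No prefoldin subunit of 6 was called at an adjusted p under 0.05. An unadjusted p under 0.05 (edgeR) was found for 1 of them, and for 9332 of the 25249 genes tested. The median was −0.09, against 0.17 with the day 4 samples only. None was called in the day 4 fit, where PFDN4, named after its value was seen, had an unadjusted p under 0.05. Of 5 partners of the cofactors and of CCT, TBCEL, a relative of TBCE that destabilises tubulin, fell by 0.26 (SE 0.08, adjusted p = 0.0233), the 1 of the 5 that was called. It went from 33.9 to 38.0 CPM in untreated samples to 28.6 to 32.9 CPM in treated samples, without overlap, as did 5.63% of all genes in this direction. Neither TCP1 (−0.18, adjusted p = 0.341) nor TBCEL (−0.23, adjusted p = 0.102) was called with the day 4 samples only. ARL2, the partner of TBCD, was not called (−0.12, adjusted p = 0.400) and is named after its value was seen. No gene of these 4 lists was called at any single dose or between the untreated days in the 12-sample fit. In the fit of the day 4 samples, CNOT11 was called lower at 0.005 μM (−0.33, adjusted p = 0.0482) and 0.5 μM (−0.38, adjusted p = 0.0169), and PDCL, a partner of CCT, at 0.05 μM (−0.30, adjusted p = 0.0499), where 6.13%, 10.7% and 9.07% of all genes were called lower, so that 1 of 10 and 1 of 5 are not far from the share of genes in general.

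Likeness across the samples was described for the 2 members that were called, as Pearson's r of log2 CPM over the 12 samples, among 9609 genes with a mean of at least 10 CPM. The genes most like TTC5 were ADAL (r = 0.979), PCGF5 (r = 0.972) and RAB10 (r = 0.960), and 134 genes had an r above 0.9. Those most like TBCD were ADAM19 (r = 0.994), LMF2 (r = 0.994) and UNC13D (r = 0.992), and 820 genes had an r above 0.9. The samples share the wide gap between the C1 libraries, which all these genes can follow.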

How the data were processed

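Total RNA of 12 MDA-MB-231/GFP samples was sequenced as paired-end reads. The authors trimmed reads with Trimmomatic 0.39, inspected them with FastQC 0.11.9, aligned them to GRCh37 with STAR 2.7.5, retained unique alignments, and used Rsubread for the number of reads over the exons of each gene. The strand setting and the annotation release are not given in the sources used here. The deposited values are raw counts per gene, and the 12 single-sample files were identical to the table. Genes were named through the GENCODE annotation on GRCh37, and 43631 of 63568 identifiers received a symbol.

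Groups came from the sample labels. Counts were filtered with filterByExpr over the 6 conditions, scaled by TMM and tested with edgeR 4.0.16 (robust quasi-likelihood F test, two-sided) in R 4.3.3: each dose against C2 and C2 against C1 from a fit of 6 condition means with 6 residual degrees of freedom, treated against untreated samples with treatment as the only term, and a slope on log10 dose among treated samples. p-values were adjusted by Benjamini-Hochberg over the 25249 genes tested. Levels are CPM with TMM-scaled library sizes. Exact permutation tests on log2 CPM used scipy 1.17.1. Alternatives were DESeq2 1.42.0 (the tool the authors used), RLE scaling, TMM factors from genes of at least 8 CPM, other filters on low counts, no robust estimation, a replicate block, only the 4 samples compared, both untreated days as control and leaving out each sample. A correction for GC content, a fit of the day 4 samples only, also with each of its samples left out, and the canonical transcript length were added after the data had been seen.

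The members and lists were chosen with earlier results of these data known. All members are named. Values of single listed genes are given only for genes called in a comparison or the most or least abundant of their list, apart from the levels of marker genes and the exceptions stated, and for called members the 3 genes most alike over the samples are given. TBCE was not analysed here.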

Additional observations from a re-analysis of the deposited data

How the results depend on the processing

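The lower level of TBCD in treated samples was called in all 21 alternatives, and that of TTC5 in 12 of 21, as given in the report. The 21 do not count the day 4 fits with a sample left out, where TBCD lost the call without C2 R1 (−0.31). Of 420 changes of members recomputed under settings other than leaving out a sample, 379 kept their direction and their side of the threshold, 4 lost the call, 13 gained it and 24 changed sign. With a sample left out, 452 of 504 kept both, 5 lost the call, 13 gained it and 34 changed sign. The cause of the changes listed next was not tested.

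The number of members called, 0 at every dose in the main fit, was 2, 1, 2 and 1 in the order of the doses with the day 4 samples only, where 10.2%, 12.6%, 19% and 19.9% of all genes were called. It was 1 at 0.0005, 0.005 and 0.5 μM with only the 4 samples compared (12%, 11% and 11.4% of all genes), 1 at 0.05 μM with both untreated days as control (14.9%), and 1 at 0.5 μM with a filter of 1 count in total (5.74%). For treated against untreated samples, where it was 2, it was 1 with a filter of 1 count (11.7%) and 1 with the day 4 samples only (13.5%). It stayed at 2 with TMM from genes of at least 8 CPM and with a filter of mean 1 CPM, but there TBCC was called and TTC5 was not. With a sample left out it ranged from 0 to 2 at 0.0005 μM, 0 to 1 at 0.005 μM, 0 to 2 at 0.05 μM, 0 to 1 at 0.5 μM, 0 to 1 for C2 against C1 and 1 to 2 for treated against untreated samples. The number of all genes called moved by more than 1.5 times too: at 0.0005 μM it was 592 in the main fit, 1173 with DESeq2, 1480 with a filter of 1 count, 1559 with both untreated days as control and 2569 with the day 4 samples only.

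The values that changed sign were small and none was called. With both untreated days as control they were TBCA at 0.0005 μM (−0.077) and 0.5 μM (−0.030), and TBCB at 0.005 μM (−0.023) and 0.5 μM (−0.059). With TMM from genes of at least 8 CPM they were TBCA at 0.005 μM (0.021), TBCB at 0.05 μM (0.11) and TBCC for C2 against C1 (0.048). TBCB at 0.05 μM was also 0.028 with a filter of 1 count, 0.078 with a filter of mean 1 CPM, 0.038 with only the 4 samples compared and 0.016 with the day 4 samples only. With RLE scaling and DESeq2, TBCB was −0.0056 and −0.0056 at 0.5 μM and −0.0024 and −0.0024 for treated against untreated samples, and SCAPER was −0.023 and −0.022 for C2 against C1. SCAPER for C2 against C1 was −0.0079 with a filter of 1 count and −0.0015 with only the 4 samples compared, and TBCC there was 0.016 with a filter of mean 1 CPM. With the GC correction TBCA was 0.071 at 0.05 μM and −0.0096 for the slope, and TBCB was −0.029 for treated against untreated samples, where TBCA was 0.0047 with the day 4 samples only.

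With each sample left out in turn, the ranges that crossed 0 were as follows. At 0.0005 μM TBCA ranged from −0.052 to 0.21, TTC5 from −0.17 to 0.019 and SCAPER from −0.14 to 0.043. At 0.005 μM TBCA ranged from −0.22 to 0.038, TBCB from −0.0099 to 0.085 and TBCC from −0.021 to 0.26. At 0.05 μM TBCA ranged from −0.41 to 0.063 and TBCB from −0.13 to 0.075. At 0.5 μM TBCA ranged from −0.0082 to 0.25 and TBCB from −0.095 to 0.072. For C2 against C1 the ranges were −0.59 to 0.13 for TBCA, −0.16 to 0.16 for TBCC, −0.75 to 0.36 for TBCD and −0.099 to 0.14 for SCAPER. For treated against untreated samples they were −0.25 to 0.041 for TBCA and −0.032 to 0.040 for TBCB, and for the slope −0.017 to 0.058 for TBCA and −0.057 to 0.027 for TBCD.

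Replicate numbers did not pair the samples: between conditions, the deviations of R1 and R2 correlated from −0.60 to 0.70 over 15 pairs of conditions, of which 8 were over 0.1. With the replicate number as a block, TBCD was −0.64 (adjusted p = 0.00327, edgeR) and TTC5 −0.32 (adjusted p = 0.0362) for treated against untreated samples, and no call of a member changed. The block moved all genes called for the slope from 773 to 420.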
